A study of Saccharomyces cerevisiae with 24 samples.

Results

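The genes of the cytosolic ribosomal proteins of *Saccharomyces cerevisiae* were followed across 24 spotted 2-colour arrays of strains with a shortened tail (the C-terminal domain, CTD) on RNA polymerase II. Members were the gene probes whose symbol was RPL or RPS followed by a number and an optional copy letter, or *RPP0*, *RPP1A*, *RPP1B*, *RPP2A* or *RPP2B*. This rule gave 127 of the 6388 gene probes, for 125 genes, since *RPL35A* and *RPL9B* each had 2 probes. They comprised 69 probes for large subunit genes (RPL), 53 for small subunit genes (RPS) and 5 for the acidic stalk (RPP). Of the 137 such genes in RefSeq, 12 had no probe under that symbol. Mitochondrial ribosomal protein genes were not members and are only counted beside them further below.

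In 4 strains the *RPB1* locus ended after 11 (*rpb1-CTD11*), 12 (*rpb1-CTD12*), 13 (*rpb1-CTD13*) or 20 (*rpb1-CTD20*) heptapeptide repeats and carried a NAT marker. The others were *RPB1-CTDWT*, which has the marker behind the full-length domain, *rpb1-CTD11 cdk8Δ* and *rpb1-CTD12 cdk8Δ*, which also lack the kinase of the Mediator complex, a wild type labelled 330 rpm, and wild type. All strains were given as BY4742 derivatives grown to mid-log phase in synthetic complete medium with glucose at a stated shaking speed of 230 rpm, and the 330 rpm wild type differed from the other wild type in its label only as far as the sources used here say. Each mutant and the 330 rpm wild type had 2 arrays, array a with the sample in Cy3 and array b with the sample in Cy5. Wild type had 8 arrays, 4 in each dye, labelled k1-a to k1-d, k2-a, k2-b, k3-a and k3-b. The main fit treated these 8 as separate, although several carry the same k label. Every array was hybridised against the same kind of wild-type reference pool, so a value is the log2 ratio of a strain over that pool. The study asked how the length of the CTD, and the loss of *CDK8*, alter transcript levels, and here that question was put to the ribosomal protein genes. The labels did not say whether the arrays of a strain came from separate cultures, so the p-values measure the spread between arrays, which may be technical.

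Cytosolic ribosomal protein genes are among the most heavily transcribed genes of growing yeast. Most are present as a pair of copies that encode nearly the same protein, and many carry an intron although introns are rare in this genome. Their promoters are bound by Rap1, Fhl1, Ifh1, Sfp1 and Hmo1, and the group is known to be switched on together when nutrients and TOR signalling are high and turned down together in stress. The CTD is the repeated tail of the largest polymerase subunit, whose phosphorylation marks the stages of transcription, and Cdk8 is a kinase of Mediator that acts on the tail and on transcription factors.

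All 127 probes were above the signal of empty spots on every array. Members made up 20 of the 50 brightest gene probes and 120 of the brightest 300, and their share of the total Cy3 signal of gene spots was 19.2% to 27.1% per array. This brightness limits the measurement, since 31.5% to 83.1% of member spots per array lay above 32768 in the Cy5 channel, a limit set here to mark near-saturated spots, against 0.447% to 1.61% of the other spots in either channel. The deleted kinase gene *SSN3*, the standard yeast name of *CDK8*, lay between -1.79 and -1.60 on the 4 arrays of the *cdk8Δ* strains and between -0.36 and 0.22 on the other 20. *RPO21*, which is *RPB1*, lay between -1.22 and -1.02 on the 4 arrays of *rpb1-CTD11* and *rpb1-CTD12* and between -1.84 and -1.60 on those of the *cdk8Δ* strains. It also read -1.45 and -1.26 in *rpb1-CTD13*, -0.12 and -0.13 in *rpb1-CTD20* and -0.97 and -0.54 in *RPB1-CTDWT*. *LYS2*, a lysine biosynthesis gene, was 2.38 to 3.50 in every truncated strain and -0.10 to 0.12 in the other strains, and *MET17*, of sulfur amino acid synthesis, was -4.94 to -4.49 in the single truncations at 12, 13 and 20 repeats, whereas it was 0.83 and 1.31 in *rpb1-CTD11* and -0.50 to 0.06 in the *cdk8Δ* strains. *MET17* thus also differs within the *CDK8* comparisons at 11 and at 12 repeats. Both are common auxotrophic markers, and their part in the member values was not tested.

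Ribosomal protein transcripts lay lower in the 2 shortest CTD strains, by an amount that depended on the scaling. On the arrays of *rpb1-CTD11* the median over the members was -0.26 on array a and -0.04 on array b, and in *rpb1-CTD12* it was -0.11 and -0.13. The 8 wild-type arrays gave medians of -0.07 to 0.04, and those of *rpb1-CTD13*, *rpb1-CTD20* and *RPB1-CTDWT* gave -0.02 to 0.03. Array a of *rpb1-CTD11*, with 112 of its 127 members below 0, and both arrays of *rpb1-CTD12* thus lay below every wild-type array, while array b of *rpb1-CTD11* lay inside the range of all wild-type arrays but below the 4 with the sample in Cy5, at -0.02 to 0.02.

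**Figure D1:**
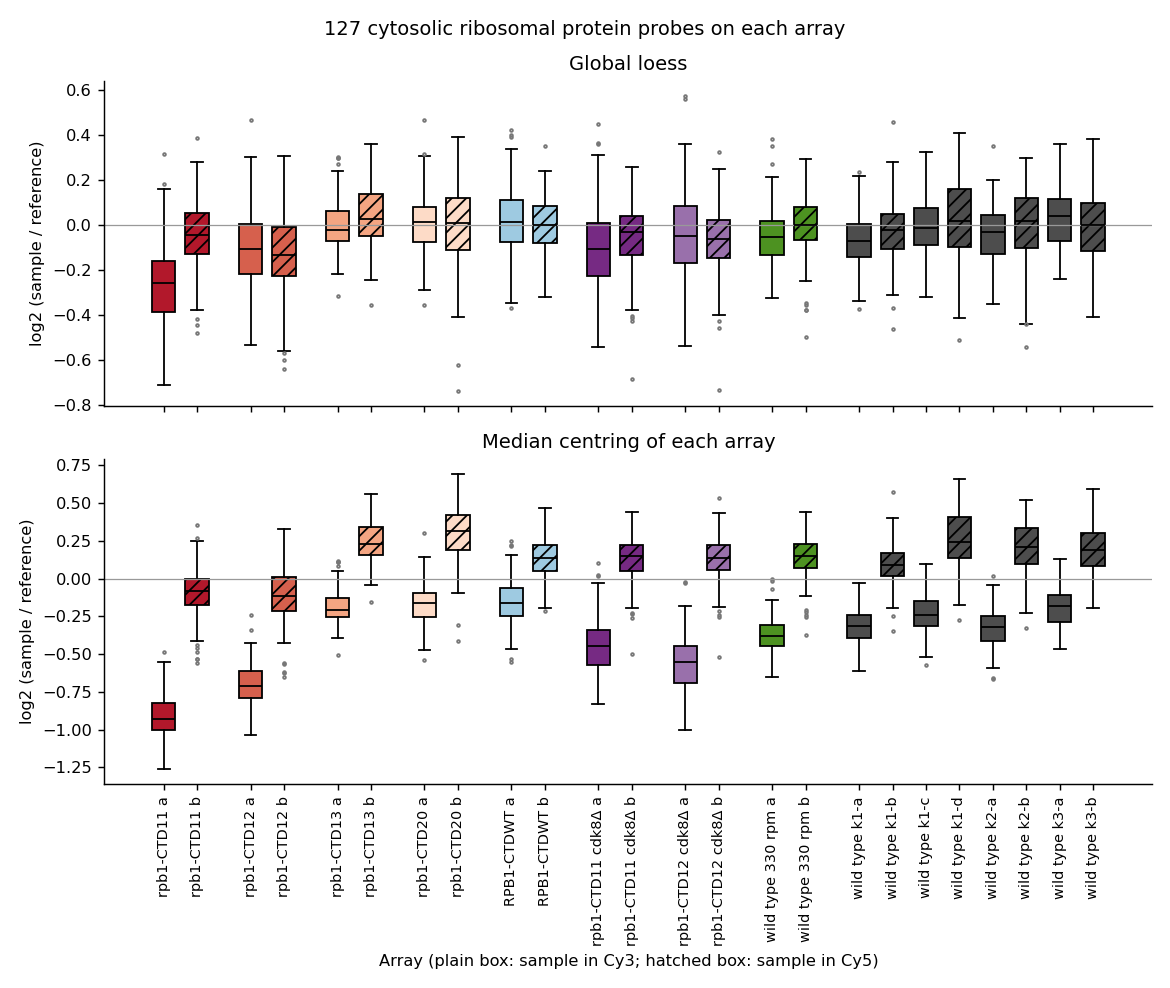
Log2 ratio over the reference pool of the 127 ribosomal protein probes on each of the 24 arrays (box: quartiles and median, whiskers to 1.5 times their distance; plain, sample in Cy3; hatched, in Cy5), under loess (top) and median centring (bottom). Under loess, arrays a and b of *rpb1-CTD11* had medians of -0.26 and -0.04, and those of *rpb1-CTD12* had -0.11 and -0.13. The 8 wild-type arrays lay between -0.07 and 0.04, a range that holds array b of *rpb1-CTD11*.

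In the fit over all arrays (limma, Benjamini-Hochberg adjustment over all 6388 gene probes, call at an adjusted p under 0.01), 34 of the 127 members were lower in *rpb1-CTD11* than in wild type and 1 was higher. Of all gene probes, 24.8% were called lower and 24.3% higher in this comparison. The 26.8% of members that were lower was therefore close to the background, whereas 0.787% of members were higher. The median difference of the members was -0.15 (quartiles -0.21 and -0.06), and 106 of the 127 differences were below 0. In *rpb1-CTD12*, 18 members were lower (14.2%) and 0 higher by limma, where 17.5% of all probes were lower and 18.6% higher, and 52 of the 127 had an unadjusted p under 0.05. The median there was -0.12 (quartiles -0.16 and -0.04), with 107 of 127 differences below 0. No member reached a 1.7-fold change in any comparison under the loess scaling. Single arrays carried weight, since without array a of *rpb1-CTD11* 8 members were called there with a median of -0.05, and without array a or b of *rpb1-CTD12* 10 or 9 were called there.

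The size of this change rested on how the arrays were scaled. The values above come from a loess curve through each array, which follows the average ratio at each brightness, and the members were 103 of the 200 brightest gene probes. When each array was instead set only to a median log ratio of 0, the median member difference was -0.48 in *rpb1-CTD11*, with 115 members lower and 0 higher, and all 127 differences were below 0. In *rpb1-CTD12* it was -0.39, with 86 members lower and 0 higher. Under that scaling, 21.2% of all probes were lower in *rpb1-CTD11* and 13.4% in *rpb1-CTD12*. Scaling to 14 spike-in probes gave medians of -0.50 and -0.46, but 0 members were then called in *rpb1-CTD11* or *rpb1-CTD12*, while 115 were lower in *rpb1-CTD13* with a median of -0.71. Median centring moved the median of all probes by 0.04 in *rpb1-CTD11*. All 34 members called lower in *rpb1-CTD11* under the loess scaling were also called lower under median centring, as were 17 of the 18 in *rpb1-CTD12*.

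Other genes of similar brightness were set beside the members. These were the 97 other probes within the members' range of brightness, with both ends of that range left out. They were not matched to the members probe by probe. In *rpb1-CTD11* they had a median difference of 0.07 under the loess scaling, with 21 lower and 18 higher, against -0.15 for the members. Under median centring those probes had a median of -0.27, with 53 lower and 6 higher, against -0.48 for the members. In *rpb1-CTD12* the other bright probes had medians of 0.17 and -0.07 under the 2 scalings. The members' medians lay below those of these other bright probes under each scaling, by values for which no test was run. Among the members, the difference in *rpb1-CTD11* and the brightness correlated at r = 0.51 over the 127 probes under the loess scaling and at r = -0.13 under median centring, a description over probes that share the same arrays.

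**Figure D2:**
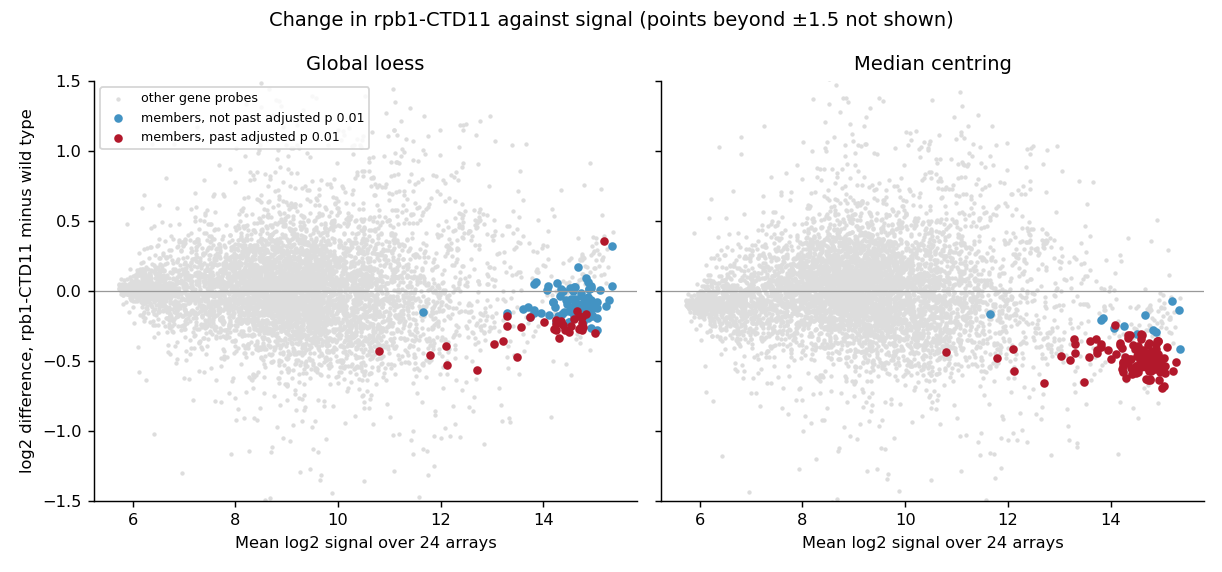
Difference of *rpb1-CTD11* minus wild type (log2, vertical axis) against mean log2 brightness (horizontal axis) for gene probes within ±1.5, with the ribosomal protein probes in blue, or in red where called, under the loess scaling and under median centring. Members occupy the bright end, with a median of -0.15 under loess and of -0.48 under median centring.

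Members free of near-saturated spots showed the same direction. The 20 members with no spot above 32768 on any array had a median difference of -0.22 in *rpb1-CTD11*, with 12 lower and 0 higher, and of -0.43 with 17 lower under median centring. On the arrays themselves these 20 had medians of -0.44 and -0.08 in *rpb1-CTD11*, where the wild-type arrays gave -0.11 to -0.06 with the sample in Cy3 and 0.02 to 0.06 with the sample in Cy5. Both *rpb1-CTD11* values thus lay below the wild-type arrays of the same dye. The other 107 members had a median of -0.14, with 22 lower and 1 higher. In the raw signal members took 19.2% of the Cy3 signal of gene spots on array a of *rpb1-CTD11* and 20.3% on that of *rpb1-CTD12*, against 21.5% to 23.98% on the wild-type arrays with the sample in Cy3. On the arrays with the sample in Cy5 they took 23.5% and 22.4% of the Cy5 signal in these strains, against 23.6% to 24.7% in wild type. The share was also low on array a of *rpb1-CTD12 cdk8Δ*, at 20.98% of Cy3. The pool's own share differed too, since members took 26.7% and 27.1% of Cy3 on array b of *rpb1-CTD11* and *rpb1-CTD12*, where Cy3 held the pool, against 22.2% to 24.2% on such wild-type arrays. The part of this shift in the ratios was not tested. Fewer expressing cells and less RNA per cell cannot be told apart in such bulk samples, and a ratio within an array shows a change relative to the other transcripts.

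The members that fell most in *rpb1-CTD11* under the loess scaling came from both subunits, and those of the small subunit are given first. The order differed under median centring, where *RPS2* was lowest at -0.70 and the median member was at -0.48. There *RPS27A* and *RPL4A*, named below, lay above that median. The single values given below are under loess unless stated. *RPS7B*, a copy of the gene for a protein of the small subunit body that is ubiquitinated by Not4, had log2 ratios of -0.67 and -0.16 on the arrays of *rpb1-CTD11*, against a lowest, median and highest value of 0.01, 0.16 and 0.28 in wild type. The groups did not overlap, and the difference was -0.57 ± 0.052 (SE, limma adjusted p = 3.4e-08). *RPS28B*, whose product lies near the mRNA exit of the small subunit and feeds back on the decay of its own transcript, had -0.68 and -0.35 in *rpb1-CTD11* and -0.24, -0.003 and 0.12 in wild type. Both values were again below every wild-type array, with a difference of -0.47 ± 0.05 (SE, limma adjusted p = 2.3e-07).

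*RPS20*, a single-copy gene for a protein of the small subunit head, read -0.63 and -0.32 in *rpb1-CTD11*, against -0.12, 0.00 and 0.06 in wild type, without overlap, for a difference of -0.46 (limma adjusted p = 3.7e-05). Without array a of *rpb1-CTD11* it was -0.29 and just missed the threshold (limma adjusted p = 0.0103). *RPS27A*, for a zinc finger protein of the small subunit, read -0.45 and -0.26, against -0.08, 0.04 and 0.15, and differed by -0.39. Its arrays were also separate from wild type. *RPS6A*, for the small subunit protein phosphorylated under TOR signalling, and *RPS2*, for a protein at the mRNA entry channel, differed by -0.38 and -0.30. In all, 14 of the 53 small subunit probes were lower and 0 higher in *rpb1-CTD11*, with a median difference of -0.12.

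Large subunit genes covered a similar range. *RPL16A*, a copy of the gene for a conserved large subunit protein, had -0.67 and -0.37 on the arrays of *rpb1-CTD11*, against -0.13, 0.01 and 0.12 in wild type, and its difference was -0.53 (limma adjusted p = 4.4e-06). *RPL4A*, for a protein that lines the exit tunnel for the nascent chain, had -0.71 and -0.25, against -0.17, -0.03 and 0.07, and differed by -0.43 (limma adjusted p = 5.1e-06). Neither gene overlapped with wild type. *RPL33B* and *RPL21A*, which encode other large subunit proteins, differed by -0.36 and -0.33. In all, 18 of the 69 large subunit probes were lower and 1 was higher, with a median of -0.16. The medians under median centring were -0.50 for the large and -0.45 for the small subunit.

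Among the stalk genes, whose proteins recruit elongation factors to the ribosome, *RPP1A* and *RPP2A* passed the test in *rpb1-CTD11*, with differences of -0.23 (limma adjusted p = 0.0041) and -0.20 (limma adjusted p = 0.0036). Neither passed without array a of *rpb1-CTD11*, where *RPP1A* was at -0.13 (limma adjusted p = 0.21) and *RPP2A* at -0.15 (limma adjusted p = 0.097). *RPP0*, which anchors the stalk, had -0.15 (limma adjusted p = 0.033), and *RPP1B* and *RPP2B* had -0.10 each (limma adjusted p = 0.21 and 0.22). All 5 were called lower under median centring, but *RPP2A* was at 0.09 in the normalized values deposited by the authors.

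The single member called higher was *RPL41B*, a copy of the gene for the smallest ribosomal protein. It read 0.32 and 0.02 in *rpb1-CTD11*, against -0.36, -0.17 and 0.04 in wild type, so array b lay within the range of all wild-type arrays, but above the 4 with the sample in Cy5. The difference was 0.36 (limma adjusted p = 0.0069, and up to 0.059 with 1 array left out), and it was -0.07 under median centring, so its direction flipped with the scaling, as it did with spike-in scaling (-0.10) and in the deposited normalized values (-0.08). *RPL41B* ranked 9 in brightness among all gene probes, and its other copy *RPL41A* ranked 3 and differed by 0.32 (limma adjusted p = 0.065).

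The duplicate probes of a gene gave similar values. The probes of *RPL9B* differed by -0.26 (limma adjusted p = 0.019) and -0.25 (limma adjusted p = 0.00013) in *rpb1-CTD11*, on either side of the threshold at almost the same size, and those of *RPL35A* by -0.13 and -0.09.

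The lowest members in *rpb1-CTD12* under the loess scaling included genes already described, in a comparison that uses the same wild-type arrays. *RPS27A* read -0.35 and -0.36 on its arrays, *RPL16A* -0.36 and -0.38, and *RPS20* -0.35 and -0.38, each below every wild-type array. Their differences were -0.39 (limma adjusted p = 2.0e-05), -0.38 (limma adjusted p = 0.00029) and -0.35 (limma adjusted p = 0.00087). *RPS7B* differed by -0.38 and *RPS28B* by -0.32. The highest member was *RPL41B*, at 0.35 (limma adjusted p = 0.011). When *rpb1-CTD11* was set directly against *rpb1-CTD12*, 0 members passed in either direction by limma, 4 had an unadjusted p under 0.05, and the median difference was -0.03. Of all probes, 4.2% were higher and 3.57% lower in that comparison. The lowest member was *RPS7B* at -0.18 (limma adjusted p = 0.069) and the highest *RPS23A* at 0.16 (limma adjusted p = 0.47).

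The longer domains gave no called member. In *rpb1-CTD13*, 0 members were higher and 0 lower by limma, 3 had an unadjusted p under 0.05, and the median was 0.03, where 1.52% of all probes were higher and 4.37% lower. *RPS7B* was again the lowest, with -0.11 and 0.01 on the arrays against the wild-type range of 0.01 to 0.28 and a difference of -0.21 (limma adjusted p = 0.014). In *rpb1-CTD20* the count was 0 in each direction with 5 at an unadjusted p under 0.05 and a median of 0.02, where 0.172% of all probes were higher and 0.204% lower. Its highest member was *RPS29A*, for a zinc-binding small subunit protein, at 0.14 (limma adjusted p = 0.28).

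In *RPB1-CTDWT*, the control for the marker, 0 members passed in either direction by limma, 4 had an unadjusted p under 0.05 and the median was 0.03. The background was 0.0157% higher and 0.125% lower. *RPS0A* lay at 0.27 (limma adjusted p = 0.54) and *RPL15B* at -0.13 (limma adjusted p = 0.53) at the ends of its range. The medians by repeat number were therefore -0.15 at 11, -0.12 at 12, 0.03 at 13 and 0.02 at 20 repeats, with the step between 12 and 13 repeats not tested as such.

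**Figure D3:**
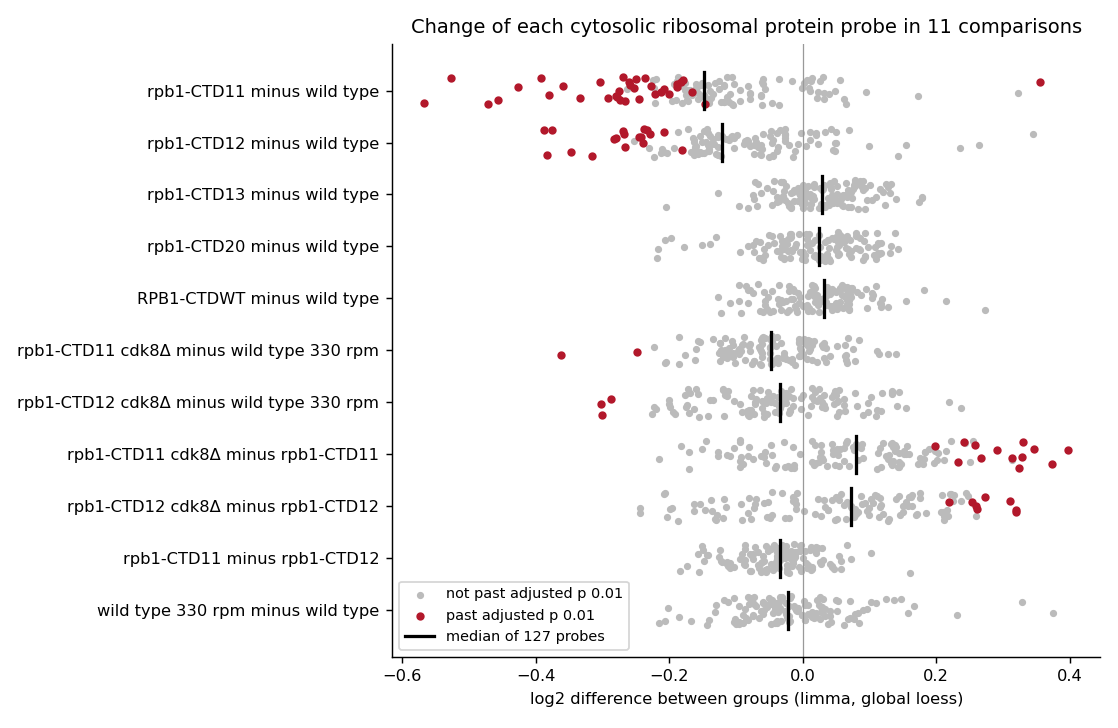
Log2 difference of the 127 ribosomal protein probes (points, red where called at an adjusted p under 0.01; black line, median) in 11 comparisons of strains, from the limma fit under loess. Medians were -0.15 in *rpb1-CTD11* and -0.12 in *rpb1-CTD12* minus wild type, and 0.08 and 0.07 for the *cdk8Δ* strains minus the strain of the same repeat number.

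In the *cdk8Δ* strains 13 members were higher than in the single mutant at 11 repeats and 8 at 12 repeats, and no member was lower past the threshold. Loss of *CDK8* is used below as the name of these comparisons. The strains compared also differ in *MET17* and in *OLI1*, described below, and the part of each difference in the member values cannot be told apart. On the arrays the member medians were -0.11 and -0.03 in *rpb1-CTD11 cdk8Δ*, against -0.26 and -0.04 in *rpb1-CTD11*. They were -0.05 and -0.06 in *rpb1-CTD12 cdk8Δ*, against -0.11 and -0.13 in *rpb1-CTD12*. In *rpb1-CTD11 cdk8Δ* minus *rpb1-CTD11*, 13 members were higher (10.2%) and 0 lower by limma, where 19.7% of all probes were higher and 18.9% lower, and 34 members had an unadjusted p under 0.05. The median was 0.08, with 91 of 127 differences above 0. In *rpb1-CTD12 cdk8Δ* minus *rpb1-CTD12*, 8 members were higher (6.30%) and 0 lower, where 17.5% of all probes were higher and 14.9% lower, and 35 members had an unadjusted p under 0.05. The median there was 0.07, with 83 of 127 differences above 0. The called shares were thus below the background in each case.

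Under median centring the median difference was 0.35 with 40 members higher at 11 repeats, and 0.21 with 6 higher at 12 repeats, and 0 were lower in each. The background was then 14.8% and 12.0% higher. The 97 other bright probes had a median of 0.11 under loess and of 0.39 under median centring for *rpb1-CTD11 cdk8Δ* minus *rpb1-CTD11*, which were at or above the members' medians of 0.08 and 0.35. At 12 repeats they had 0.04 and 0.19, below the members' 0.07 and 0.21. Without array a of *rpb1-CTD11* the median at 11 repeats was -0.02 with 5 members called, without its array b 28 were called, and without either array of *rpb1-CTD11 cdk8Δ* 5 were called. At 12 repeats 0 members were called without array b of *rpb1-CTD12* or array a of *rpb1-CTD12 cdk8Δ*, 3 without array b of *rpb1-CTD12 cdk8Δ*, and 15 without either array of *rpb1-CTD11*, which enters through the shared spread.

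The genes higher in the *cdk8Δ* strains than in the single mutants came from both subunits. *RPL33B* read -0.05 and 0.08 in *rpb1-CTD11 cdk8Δ*, against -0.60 and -0.17 in *rpb1-CTD11*, without overlap, and its difference was 0.40 (limma adjusted p = 0.0001). *RPS20* read -0.11 and -0.10, against -0.63 and -0.32, and differed by 0.37 (limma adjusted p = 0.0029). *RPL16A* read -0.13 and -0.25, against -0.67 and -0.37, and differed by 0.33 (limma adjusted p = 0.0051). All 3 were also separate on the arrays and were among the members lower in *rpb1-CTD11* than in wild type, a comparison that shares the *rpb1-CTD11* arrays. Without array a of *rpb1-CTD11* the difference of *RPL16A* was 0.12 (limma adjusted p = 0.21) and that of *RPS20* 0.21 (limma adjusted p = 0.097), and neither passed without either array of *rpb1-CTD11 cdk8Δ*, whereas *RPL33B* passed with any array left out.

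*RPS7A*, the brighter copy of *RPS7B*, differed by 0.35 (limma adjusted p = 0.0014), and *RPS29A* by 0.33 (limma adjusted p = 0.0012). *RPS7A* read 0.28 and -0.15 in *rpb1-CTD11 cdk8Δ*, against -0.20 and -0.37 in *rpb1-CTD11*, without overlap, and the arrays with the sample in Cy3 read higher than those with the sample in Cy5 in wild type too. The other 8 called members had differences of 0.20 (*RPS2*) to 0.32 (*RPS28B*). *RPS7B*, the member furthest below wild type in *rpb1-CTD11* under loess, differed by 0.14 (limma adjusted p = 0.083). *RPL22B* had the lowest value at -0.22 (limma adjusted p = 0.017).

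At 12 repeats the called members were *RPS27B* at 0.32 (limma adjusted p = 0.0012), *RPL34B* at 0.32 (limma adjusted p = 0.0018), *RPS7A* at 0.31 (limma adjusted p = 0.0041), *RPS25B*, for a small subunit protein used in internal initiation, at 0.27, *RPS29A* and *RPS30A* at 0.26 each, *RPL33B* at 0.25 and *RPS28A* at 0.22. Over the 24 settings that leave out 1 array, *RPS29A* failed the threshold in 16 (limma adjusted p up to 0.15), *RPS25B* in 11 (up to 0.086), *RPL34B* and *RPS7A* in 3 each and *RPS27B* in 2. *RPS27B* read 0.03 and 0.32 in *rpb1-CTD12 cdk8Δ*, against -0.28 and -0.01 in *rpb1-CTD12*, without overlap. The comparisons at 11 and 12 repeats share no arrays, but they share the dye term and the spread of the same fit. In both, 6 members were called, which is 46.2% of the 13 and 75% of the 8. The same overlap over all probes was not computed, so these shares have no background beside them. *RPP0* had the lowest value at 12 repeats, -0.24 (limma adjusted p = 0.013). A direct test of the difference between the *CDK8* differences at 11 and 12 repeats called 0 members by limma, with 2 at an unadjusted p under 0.05 and a median of 0.04, where 0.626% of all probes were higher and 1.64% lower.

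**Figure D4:**
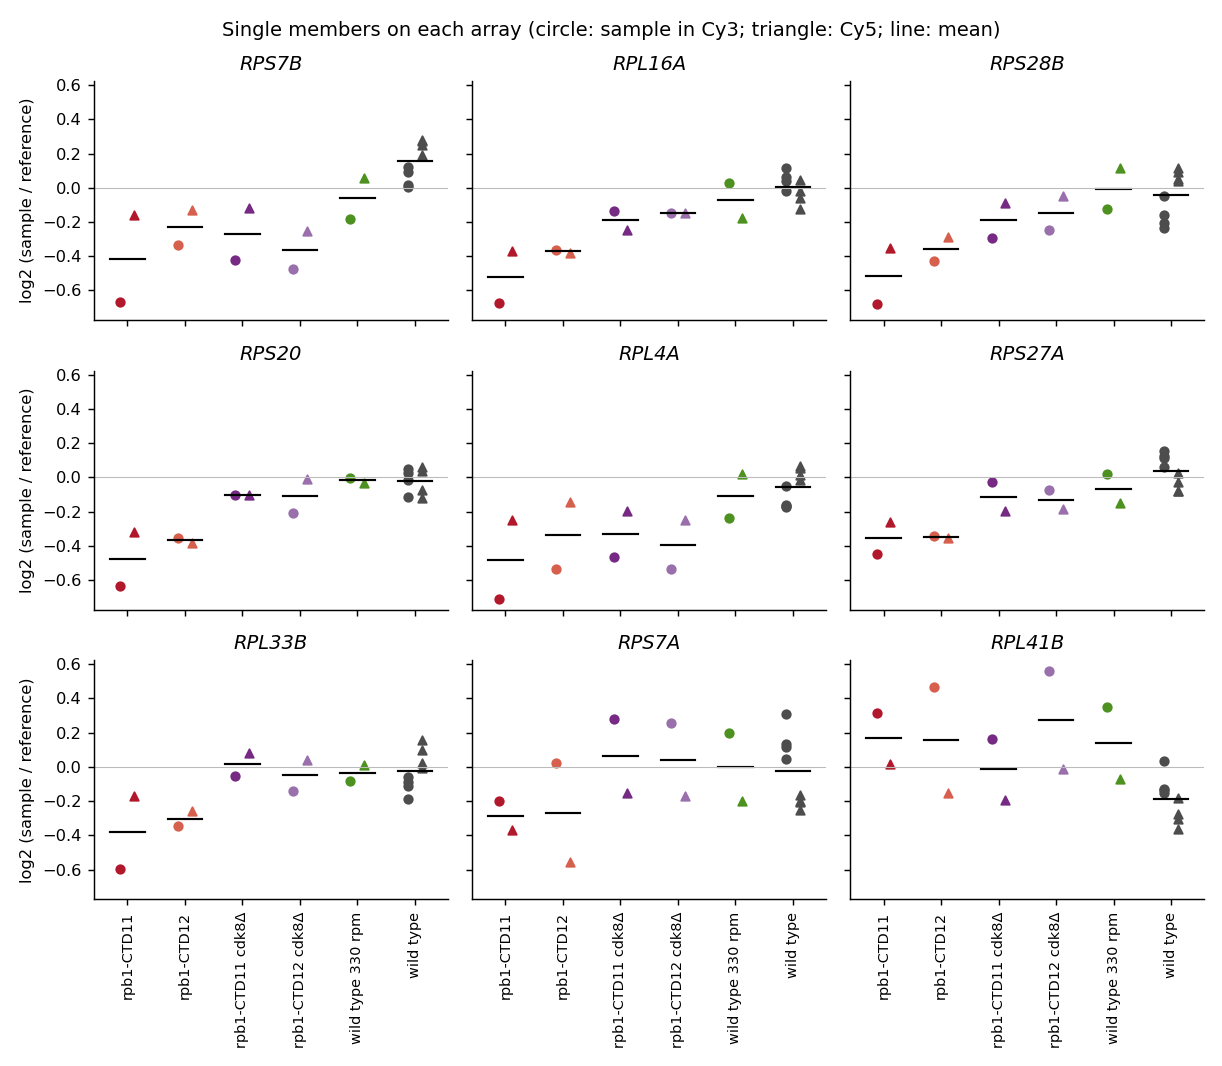
Log2 ratio over the reference pool on each array for 9 members, by strain (circle, sample in Cy3; triangle, in Cy5; line, mean). *RPS20* lay at -0.63 and -0.32 in *rpb1-CTD11* and at -0.11 and -0.10 in *rpb1-CTD11 cdk8Δ*, against -0.12 to 0.06 on the wild-type arrays.

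Against the 330 rpm wild type, few members were called in the strains without *CDK8*. In *rpb1-CTD11 cdk8Δ*, 2 members were lower (1.57%) and 0 higher by limma, where 13.2% of all probes were lower and 15.2% higher, and 10 members had an unadjusted p under 0.05. The median difference was -0.05. *RPL22B*, the dimmer copy of a large subunit gene, read -0.55 and -0.43, against -0.14 and -0.11 in the 330 rpm wild type, and differed by -0.36 (limma adjusted p = 0.00046). *RPL3*, for a large subunit protein close to the peptidyl transferase centre, read -0.30 and -0.24, against -0.03 and -0.02, and differed by -0.25 (limma adjusted p = 0.0022). Neither gene overlapped between the strains. The count was 0 without array a of *rpb1-CTD11 cdk8Δ*, 1 without either array of the 330 rpm wild type and 4 without either array of *rpb1-CTD11*.

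In *rpb1-CTD12 cdk8Δ*, 3 members were lower (2.36%) and 0 higher by limma, where 11.2% of all probes were lower and 15.6% higher, 18 had an unadjusted p under 0.05, and the median was -0.03. *RPL3* read -0.31 and -0.34, again below the -0.03 and -0.02 of the 330 rpm wild type, and differed by -0.30 (limma adjusted p = 0.00044). *RPS7B* differed by -0.30 (limma adjusted p = 0.0014) and *RPL4A* by -0.29 (limma adjusted p = 0.0048). Only 1 member was called lower in each of these strains under median centring, where 0 were higher. In *rpb1-CTD12 cdk8Δ* 1 member was called without either array of the 330 rpm wild type.

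These counts depended on the control. Against the other wild type, 20 members were called in *rpb1-CTD11 cdk8Δ* and 28 in *rpb1-CTD12 cdk8Δ*, where 2 and 3 were called against the 330 rpm wild type. The other wild type has 8 arrays and the 330 rpm wild type 2. The share of all probes called against the other wild type was not computed, so the higher counts are not a result about the members. The 330 rpm wild type minus the other wild type called 0 members by limma, with 12 at an unadjusted p under 0.05 and a median of -0.02, where 2.46% of all probes were higher and 2% lower. *RPS7B* was lowest at -0.22 (limma adjusted p = 0.012) and *RPL41A* highest at 0.38 (limma adjusted p = 0.092).

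Both copies were measured for 46 pairs, and the copies had the same sign in *rpb1-CTD11* minus wild type in 35 pairs and in *rpb1-CTD12* minus wild type in 41. The median size of the difference between copies was 0.08 and 0.06 on the log2 scale, with 9 and 6 pairs over 0.2. Near-identical copies can hybridise to each other's probes, so the values of single copies are uncertain.

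*RPS28* differed most between copies under the loess scaling, since *RPS28A* was at -0.12 and *RPS28B* at -0.47 in *rpb1-CTD11* minus wild type. The gap of A minus B on the arrays was 0.28 and 0.28 in *rpb1-CTD11*, 0.25 and 0.18 in *rpb1-CTD12*, 0.24 and 0.26 in *rpb1-CTD11 cdk8Δ* and 0.29 and 0.16 in *rpb1-CTD12 cdk8Δ*. It was 0.02 and 0.18 in *rpb1-CTD13*, 0.07 and 0.04 in the 330 rpm wild type and -0.22 to 0.06 in wild type. The 8 arrays of strains with 11 or 12 repeats thus lay above the 10 arrays of either wild type, and array b of *rpb1-CTD13* lay within their range. The copies were of similar brightness, at 13.7 and 13.5 log2 units, and the gap was 0.31 under median centring. The order of the pairs depended on the scaling, since the gap of *RPL22* in *rpb1-CTD11* was -0.12 under loess and -0.39 under median centring.

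For 4 of the other wide pairs the copies differed in brightness, and the gap was at most 0.07 in size under median centring. The difference A minus B was -0.33 for *RPS27* (0.04 under median centring), -0.31 for *RPL4* (-0.03), 0.31 for *RPS7* (0.03) and -0.25 for *RPL16* (0.07). For *RPS25* it was 0.28 and 0.17. The mean log2 brightness of the copies was 12.1 and 14.9 for *RPS27A* and *RPS27B*, 10.8 and 14.2 for *RPL4A* and *RPL4B*, and 14.8 and 12.7 for *RPS7A* and *RPS7B*.

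**Figure D5:**
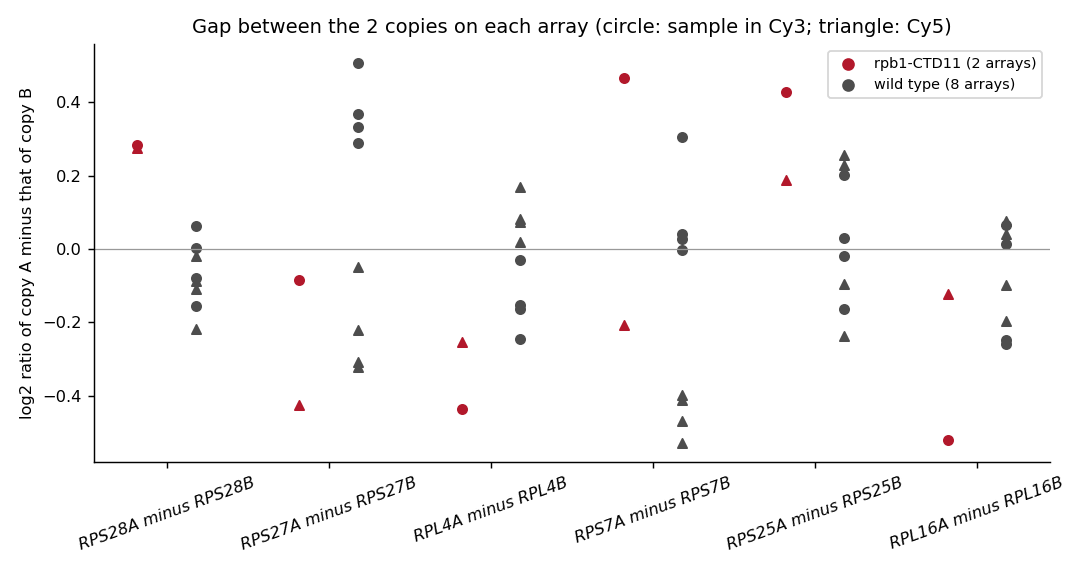
Log2 ratio of copy A minus that of copy B on each array of *rpb1-CTD11* (red) and wild type (grey) for the 6 pairs whose copies differed most under loess (circle, sample in Cy3; triangle, in Cy5). The *RPS28* gap was 0.28 on both *rpb1-CTD11* arrays, against -0.22 to 0.06 in wild type, whereas the *RPS7* gap, at 0.47 and -0.21, lay above the wild-type arrays of the same dye but not above all wild-type arrays.

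Members were also grouped by chromosome. Over the 13 chromosomes with at least 5 members (positions credited to RefSeq, assembly R64), the median in *rpb1-CTD11* minus wild type was between -0.22 on chromosome XIV and 0.01 on chromosome X, while the other genes of those chromosomes had medians of -0.04 to 0.03.

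Other genes of the ribosome pathway were counted beside the background of 24.8% of all probes lower in *rpb1-CTD11* and 17.5% in *rpb1-CTD12*. Of 40 genes for ribosome biogenesis factors, which process and assemble the subunits, 36 were lower and 0 higher in *rpb1-CTD11*, with a median of -0.38, and 10 were lower and 0 higher in *rpb1-CTD12*, with a median of -0.18. Of 19 genes for subunits of RNA polymerases I and III, which make the ribosomal RNAs, 11 were lower and 0 higher in *rpb1-CTD11* and 5 were lower and 0 higher in *rpb1-CTD12*. For the dedicated chaperones of ribosomal proteins, 4 of 7 measured were lower and 0 higher in *rpb1-CTD11*. Of 17 elongation and nascent chain factors, 8 were lower and 1 higher there, and of 19 initiation factors 5 were lower and 1 higher, close to the background. After loss of *CDK8* at 11 repeats 4 biogenesis genes were higher and 0 lower, and 2 elongation factors were higher and 3 lower. Of the initiation factors 1 was higher and 4 lower, where 19.7% of all probes were higher and 18.9% lower. Under median centring the counts lower were 0, 0 and 1 for biogenesis, elongation and initiation, and those higher 2, 2 and 1. At 12 repeats 1 biogenesis gene was higher and 8 lower (median -0.14), 2 elongation factors were higher and 7 lower, and 1 initiation factor was higher and 6 lower. Of the members 8 (6.30%) were higher and 0 lower, where 17.5% of all probes were higher and 14.9% lower. Under median centring the counts lower fell to 3, 1 and 2 for biogenesis, elongation and initiation, and those higher stayed at 1, 2 and 1.

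Mitochondrial ribosomal protein genes are a separate family encoded in the nucleus. Of 66 measured, 44 were higher and 0 lower in *rpb1-CTD11*, with a median of 0.22, and 33 were higher and 0 lower in *rpb1-CTD12*. After loss of *CDK8*, 2 were higher and 8 lower at 11 repeats, and 9 were higher and 4 lower at 12. The difference between this family and the cytosolic one was not tested.

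Of the 13 listed regulators, 5 were lower and 2 higher in *rpb1-CTD11*. *RAP1*, for the factor bound at most ribosomal protein promoters, differed by -0.49 (limma adjusted p = 2.4e-06) in *rpb1-CTD11*, by -0.38 (limma adjusted p = 7.3e-05) in *rpb1-CTD12* and by 0.56 (limma adjusted p = 1.1e-05) in *rpb1-CTD11 cdk8Δ* minus *rpb1-CTD11*. *HMO1*, for a protein of the HMG box family at these promoters, had 0.26, 0.25 and -0.27 in the same comparisons, and *IFH1*, for a coactivator of the family, had -0.31 in *rpb1-CTD11*.

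Other transcripts also differed between these strains. *OLI1*, for a subunit of the ATP synthase encoded in the mitochondrial genome, lay between -5.23 and -4.98 on all 4 arrays of *rpb1-CTD11* and *rpb1-CTD12* and between -0.49 and 0.73 on the other 20, so it was low in the same strains as the members. Its part in the member values was not tested. Of 16 general stress genes, 6 were higher and 0 lower in *rpb1-CTD11* with a median of 0.53, 13 were higher in *rpb1-CTD12* with a median of 0.84, and 14 were higher in each *cdk8Δ* strain over its single mutant, with medians of 1.85 at 11 repeats and 1.48 at 12. Most stress genes were thus higher after loss of *CDK8*. Of the 127 members 13 (10.2%) and 8 (6.30%) were higher there, below the 19.7% and 17.5% of all probes. The part of the stress genes in the member values was not tested.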

How the data were processed

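RNA of 24 samples was measured on spotted 2-colour arrays against a wild-type pool. The deposited files are scanner tables with a mean intensity and a local background intensity for Cy5 and Cy3 at each of 15552 spots, with no normalization by the authors. The authors also deposited a table of normalized log2 ratios per probe, made per the labels with limma 2.12.0, which was used only as an alternative.

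Here the intensities were background-corrected (normexp, offset 50), normalized by a loess curve within each array (span 0.3, control spots at weight 0) and averaged over the 2 spots of a probe, and ratios were turned to sample over pool. A fit with a coefficient for each of the 9 groups and for the dye was made with limma 3.58.1 in R 4.3.3 (lmFit and eBayes, two-sided), with Benjamini-Hochberg adjustment over 6388 gene probes and a call at 0.01. Arrays lettered a or c had the sample in Cy3 and those lettered b or d in Cy5, so this term groups arrays by dye. For the groups with 2 arrays, dye and letter cannot be told apart. The values of arrays a minus b correlated across gene probes at 0.62 to 0.93 between groups. With 2 arrays a strain, the number of arrays limits the precision, and no filter on dim probes was applied. Gene symbols were those of the platform annotation. The fit was tested on simulated data. Changes were put only into probes of low to middle brightness, so the test does not cover the bright end where most members lie.

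Alternatives were median centring, scaling to 14 spike-in probes, print-tip loess, a curve fitted without the members (added after seeing the data), the authors' values, other thresholds, removal of near-saturated spots, other controls, and leaving out arrays. Another took the k label of the wild-type arrays as a random block, with a consensus correlation of 0.36. Members and gene lists were chosen with earlier results of these data known. Named members were the 5 with the largest called change in each direction that went the same way in both arrays, the stalk genes, the 6 widest copy pairs, and the highest and lowest member of a strain. Other members are named where they were called or complete a copy pair. The chromosome of each gene was taken from RefSeq (assembly R64), and no promoters or sequences were used here.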

Additional observations from a re-analysis of the deposited data

Results flagged for a closer look

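On the wild-type array k1-a, *RPS29A* had a log2 ratio of -0.374, against -0.17 to -0.06 on the other 7 wild-type arrays. The gap of this array to the nearest other was 0.634 of the whole range of the 8 arrays. It was 1 of 19 sets of 8 values tested, and chance gives about 1 in 20. *RPS29A* is 1 of the members called higher after loss of *CDK8*, where the wild-type arrays enter only through the dye term and the shared spread.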

How the results depend on the processing

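Moves of the member medians were set against 0.0466, the pooled SD of the array medians left after group and dye. Under other settings that kept all or most arrays, 126 medians of the members moved by no more than this SD and 28 moved by more. A further 1, larger than this SD in the main fit, changed sign. Medians below this SD in the main fit were sorted by the size of the move only, and some of them changed sign too. For *rpb1-CTD13* the median was 0.03 under loess and -0.71 with spike-in scaling. With the same settings, 332 values of named genes kept their direction and their side of the threshold, 126 no longer passed and 4 changed sign. Where no cause is named below, the cause was not tested.

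Under median centring the medians were -0.48 in *rpb1-CTD11*, -0.39 in *rpb1-CTD12*, 0.12 in *rpb1-CTD20*, -0.10 in *rpb1-CTD12 cdk8Δ* minus the 330 rpm wild type, 0.35 and 0.21 for loss of *CDK8* at 11 and 12 repeats, -0.092 for *rpb1-CTD11* minus *rpb1-CTD12*, -0.089 for the 330 rpm wild type and 0.16 for the difference of the *CDK8* differences. The counts were 115, 86 and 40 for *rpb1-CTD11*, *rpb1-CTD12* and loss of *CDK8* at 11 repeats and 1 for each *cdk8Δ* strain against the 330 rpm wild type, and *RPL41B* was at -0.075. With the curve fitted without the members, chosen after seeing the data, the medians were -0.29 (77 called) in *rpb1-CTD11*, -0.29 (68 called) in *rpb1-CTD12*, and -0.12 and -0.16 (7 called) in the *cdk8Δ* strains at 11 and 12 repeats.

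Scaling to the spike-in probes gave -0.50, -0.46, -0.71, -0.23 and -0.11 in *rpb1-CTD11*, *rpb1-CTD12*, *rpb1-CTD13*, *rpb1-CTD20* and *RPB1-CTDWT*, -0.10 in *rpb1-CTD12 cdk8Δ*, 0.70 and 0.60 for loss of *CDK8*, 0.23 for the 330 rpm wild type and 0.10 for the difference of differences. The median of all probes was -0.61 in *rpb1-CTD13* under this scaling, and 115 members were called there. Loss of *CDK8* at 11 repeats had 1 call, and the other comparisons with calls had 0 (*RPL41B* at -0.10).

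With the authors' normalized values the medians were -0.060 in *rpb1-CTD12* and 0.025 for loss of *CDK8* at 12 repeats. They were -0.015 in *RPB1-CTDWT* and 0.00056 in *rpb1-CTD11 cdk8Δ* minus the 330 rpm wild type, both with a changed sign. The counts were 2 in *rpb1-CTD13*, 5 and 8 in the *cdk8Δ* strains, 21 and 13 for loss of *CDK8*, 2 for the 330 rpm wild type and 2 for the difference of differences, with *RPL41B* at -0.078 and *RPP2A* at 0.087.

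The dye term is the block that pairs arrays of the same letter. Without this replicate block the counts were 7 in *rpb1-CTD11*, 3 in *rpb1-CTD12*, 1 in *rpb1-CTD12 cdk8Δ* minus the 330 rpm wild type, and 2 and 0 for loss of *CDK8* at 11 and 12 repeats. With the other wild type as control they were 19, 6, 20 and 28 in *rpb1-CTD11*, *rpb1-CTD12*, *rpb1-CTD11 cdk8Δ* and *rpb1-CTD12 cdk8Δ*. An adjusted p under 0.05 gave 62, 37, 1, 5, 10, 24, 21 and 5 for *rpb1-CTD11*, *rpb1-CTD12*, *rpb1-CTD13*, the *cdk8Δ* strains, loss of *CDK8* at 11 and 12 repeats and the 330 rpm wild type, and adding a 1.7-fold limit gave 0 everywhere. Print-tip loess gave 2 in *rpb1-CTD13*, 1 in *rpb1-CTD11 cdk8Δ* against the 330 rpm wild type, 1 for *rpb1-CTD11* minus *rpb1-CTD12* and 2 for the 330 rpm wild type. A trended robust variance gave 1 in *rpb1-CTD11 cdk8Δ* and 8 and 3 for loss of *CDK8*, and leaving out wild-type arrays k1-c and k1-d together gave 4 at 12 repeats.

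Without near-saturated spots only 22 to 93 members kept a value, and 14, 10 and 1 were called in *rpb1-CTD11*, *rpb1-CTD12* and *rpb1-CTD11 cdk8Δ*, with 2 for loss of *CDK8* at 12 repeats and medians of 0.15 for that at 11 repeats and 0.10 for the difference of differences.

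With each array left out in turn, assuming that a lone array varies like the others, the ranges of the medians and counts were -0.24 to -0.047 and 8 to 52 in *rpb1-CTD11*, -0.16 to -0.068 and 9 to 22 in *rpb1-CTD12*, 0 to 1 calls in *rpb1-CTD13*, 0 to 4 and 1 to 4 calls in the *cdk8Δ* strains against the 330 rpm wild type, -0.023 to 0.17 and 5 to 28 for loss of *CDK8* at 11 repeats, 0.030 to 0.12 and 0 to 15 at 12 repeats, -0.14 to 0.057 and 0 to 4 for *rpb1-CTD11* minus *rpb1-CTD12*, 0 to 1 calls for the 330 rpm wild type, and -0.075 to 0.14 and 0 to 1 for the difference of differences. The lowest medians for loss of *CDK8* at 11 repeats and the highest for *rpb1-CTD11* came without array a of *rpb1-CTD11*. The alternatives by intron and promoter motif were not run, since no such annotation was used here.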
